A study of Mus musculus with 10 samples.

Results

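Inhibitory receptors other than PD-1 were followed as 6 genes of the 31053 features counted in T cells that had infiltrated a mouse colorectal carcinoma: Lag3, Tigit, Ctla4, Havcr2 (which encodes TIM-3), Btla and Cd160. They were taken by their symbols, and each symbol named 1 row in the gene lists of the 5 RNA libraries. The untreated group held 2 libraries, S. chamaejasme (the plant Stellera chamaejasme) 1 library, and S. chamaejasme plus anti-PD-1, called the combination below, 2 libraries, and every RNA library had a matched library of T cell receptor sequences. No group given anti-PD-1 alone is analysed here, so its part in the combination cannot be told apart from that of the pairing, and the labels used here give no strain, age, tumour model, dose, time, sorting or batch. The labels do not say whether the libraries of a group came from separate animals, so the p-values measure the spread between these libraries, which may be technical.

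T cells carry inhibitory receptors that dampen signals from the antigen receptor and from CD28. CTLA-4 competes with CD28 for CD80 and CD86, TIGIT competes with CD226 for the poliovirus receptor and nectin-2, LAG-3 binds MHC class II, and TIM-3 binds galectin-9 among other ligands. BTLA and CD160 both bind the herpesvirus entry mediator, encoded by Tnfrsf14. Regulatory T cells carry CTLA-4 constitutively, and several of these receptors together mark T cells under lasting stimulation in tumours.

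All 6 genes are protein coding, and the Ensembl identifiers in the files were those of the GENCODE annotation of GRCm38 (mm10). Tigit (ENSMUSG00000071552) lies on chromosome 16 at 43648867 to 43664146 on the minus strand, and Btla (ENSMUSG00000052013) on the same chromosome at 45224315 to 45257670 on the plus strand. Lag3 (ENSMUSG00000030124) lies on chromosome 6 at 124904361 to 124911705 on the minus strand, and Havcr2 (ENSMUSG00000020399) on chromosome 11 at 46454935 to 46481255 on the plus strand. Ctla4 (ENSMUSG00000026011) spans 60887000 to 60915832 of chromosome 1 on the plus strand. Cd160 (ENSMUSG00000038304) spans 96798763 to 96829351 of chromosome 3 on the minus strand.

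The 250 bases before the start are shown for Tigit and Ctla4, whose levels were highest in Treg-like cells, and for Cd160, whose levels were lowest there and in CD4 conventional cells. They come from RefSeq promoters of GRCm38.p6 (chr16:43664185-43664434, minus strand; chr1:60908775-60909024, plus strand; chr3:96829352-96829601, minus strand, the outer of 2 Cd160 starts) and overlap no GENCODE exon of their gene. The Ctla4 window lies inside the span that GENCODE gives the gene. Capitals mark the core letters GGAAA (as bound by NFAT) and TGTGGT (as bound by RUNX factors) on either strand, with no overlap between matches.
Tigit: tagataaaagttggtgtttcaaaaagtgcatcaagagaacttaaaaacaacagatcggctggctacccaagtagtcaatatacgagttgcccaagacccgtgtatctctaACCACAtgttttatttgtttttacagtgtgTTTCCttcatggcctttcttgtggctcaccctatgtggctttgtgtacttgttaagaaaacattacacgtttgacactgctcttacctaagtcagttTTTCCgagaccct
Ctla4: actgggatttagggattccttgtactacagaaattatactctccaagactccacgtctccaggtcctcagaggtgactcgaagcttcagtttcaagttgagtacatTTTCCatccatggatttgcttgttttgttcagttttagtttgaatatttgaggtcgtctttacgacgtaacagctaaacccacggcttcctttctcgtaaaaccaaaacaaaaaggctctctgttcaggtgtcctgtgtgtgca
Cd160: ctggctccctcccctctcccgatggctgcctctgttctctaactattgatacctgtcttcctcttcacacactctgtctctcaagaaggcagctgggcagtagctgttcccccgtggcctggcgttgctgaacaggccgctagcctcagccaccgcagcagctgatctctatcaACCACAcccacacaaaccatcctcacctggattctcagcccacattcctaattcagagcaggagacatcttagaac
The Tigit window held 2 matches to GGAAA and 1 to TGTGGT, the Ctla4 window 1 match to GGAAA, and the Cd160 window 1 match to TGTGGT. Over 27025 promoters of the same length, 55.6% held GGAAA and 14.2% held TGTGGT, so the first match was common. The other letters searched, TGANTCA (AP-1), GGTGTGA (T-box factors) and GTAAACA (forkhead factors), were absent from these 3 windows and present in 6.87%, 3.31% and 3.09% of promoters. The window of the inner Cd160 start, not printed, held 1 match each to the NFAT, RUNX and T-box letters.

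The 5 RNA libraries held 22590 barcodes and 97967927 UMIs, or 8763821 to 27759543 UMIs in a library. Of these, 20239 cells were kept, with a median of 3404 to 4906 UMIs per cell in a library. Libraries shared 14 to 54 barcodes pairwise. Clusters were built without the 6 genes and Pdcd1, so that a cluster's receptor level is not its definition. CD8-like cells numbered 473 to 777 in a library, CD4 conventional T-like cells 1482 to 3220, Treg-like cells 173 to 704, and γδ-like cells 19 to 87. The defining genes followed these names: Cd8a lay at 459 to 730 CPM (a gene's UMIs scaled to 1e6 UMIs of the class in a library) in CD8-like cells, Foxp3 at 150 to 232 CPM in Treg-like cells and at most 4.0 CPM in CD4 conventional cells, and Trdc at 93.9 to 222 CPM in γδ-like cells. An innate-like cluster of 812 cells, led by Xcl1, Fcer1g, Cd7, Tyrobp and Cd160 itself, is described apart. AY036118 and Lars2, which are known to take up reads of ribosomal RNA and serve here as a sign of RNA quality, were higher in untreated libraries: in CD8-like cells AY036118 lay at 2970 and 3680 CPM untreated, 759 with S. chamaejasme, and 1136 and 1071 with the combination. Their part in the group differences below was not tested.

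Ctla4, which encodes the competitor of CD28, was the most abundant of the 6 in Treg-like cells and also led in CD8-like and CD4 conventional cells. UMIs of the 5′ chemistry count molecules and not fragments along a transcript, so genes are compared here as UMIs without division by length. In Treg-like cells the untreated libraries had 1057 and 1321 CPM of Ctla4, the S. chamaejasme library 1451, and the combination libraries 1604 and 1438. CD4 conventional cells had 492, 282, 388, 280 and 331 CPM of Ctla4 in the same order, and CD8-like cells 302, 175, 277, 173 and 210. Every Treg-like value lay above every value of the other classes, while the CD8-like and CD4 conventional ranges overlapped. In γδ-like cells Ctla4 ranged from 159 to 543 CPM, on 13 to 93 UMIs.

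Tigit, the competitor of the activating receptor CD226, was likewise highest in Treg-like cells. Treg-like cells had 574 and 549 CPM of Tigit untreated, 507 with S. chamaejasme, and 451 and 379 with the combination. CD4 conventional cells had 141, 122, 145, 103 and 105 CPM in that order, and CD8-like cells 127, 113, 96.0, 74.0 and 79.1. The Treg-like libraries stood above all others without overlap, and the combination libraries were the lowest of their class in all 3 classes. In γδ-like cells Tigit lay between 18.3 and 51.2 CPM on 2 to 10 UMIs.

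Lag3, the receptor for MHC class II, was a low transcript outside Treg-like cells. There it lay at 131 and 53.3 CPM untreated, 78.4 with S. chamaejasme, and 129 and 138 with the combination, so 1 untreated library was as high as the combination. CD8-like cells had 13, 14, 19.8, 19.0 and 21.0 CPM of Lag3, and CD4 conventional cells 21.2, 6.04, 21.4, 15.4 and 27.6. These 2 classes overlapped. The γδ-like cells held 1 Lag3 UMI in all 5 libraries together.

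Cd160 was highest in innate-like cells and lowest in CD4 conventional cells. CD8-like cells had 125 and 38.7 CPM of Cd160 untreated, 151 with S. chamaejasme, and 58.7 and 48.9 with the combination. Treg-like cells stayed at 9.30 to 14.6 CPM and CD4 conventional cells at 2.65 to 8.47 CPM. The innate-like cluster had 388 and 282 CPM untreated, 842 with S. chamaejasme, and 550 and 518 with the combination, and γδ-like cells ranged from 24.4 to 143 CPM.

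Btla, whose product binds the same entry mediator as CD160, was low and highest in CD4 conventional cells, at 17.9 and 31.0 CPM untreated, 17.6 with S. chamaejasme, and 21.9 and 24.7 with the combination. Treg-like cells had 8.71 to 22.8 CPM and CD8-like cells 4.46 to 11.2 CPM. The 2 CD4 classes overlapped, and all CD8-like values lay below all CD4 conventional ones.

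Havcr2, which encodes TIM-3, was close to absent. Its CD8-like values were 5.50 and 1.99 CPM untreated, 0 with S. chamaejasme, and 0.247 and 0.447 with the combination, on 11, 5, 0, 1 and 2 UMIs. Treg-like cells had 1.86 to 4.86 CPM and CD4 conventional cells at most 0.491 CPM, and no Havcr2 UMI was seen in γδ-like or innate-like cells. The limit that a count of 0 allows, 3 counts, was 0.956 CPM in CD8-like cells of the S. chamaejasme library, 1.99 to 34.3 CPM in innate-like cells and 9.13 to 39 CPM in γδ-like cells, so the zeros of the last 2 classes say less. Such limits and the intervals given here cover counting error only.

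**Figure D1:**
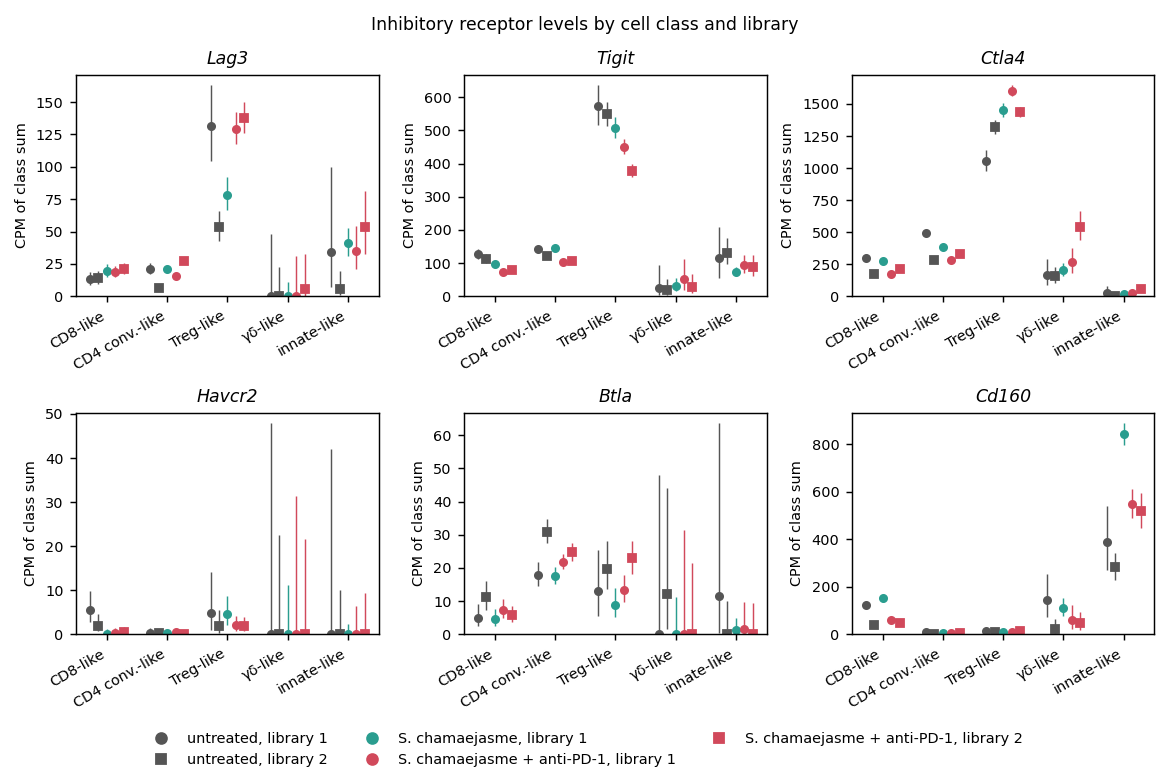
Level of each receptor gene (CPM of the class sum, vertical axis) in 5 cell classes (horizontal axis), 1 point per library, coloured by group; bars are exact 95% Poisson intervals. Ctla4, Tigit and Lag3 were highest in Treg-like cells, Cd160 was highest in innate-like cells, and Havcr2 stayed at or below 5.50 CPM.

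The order of classes was tested in cells assigned by lineage transcripts instead of clusters. Cells with Cd8a or Cd8b1, with Cd4, with Foxp3, or with Trdc and no TRB chain were taken as CD8, CD4 conventional, Treg and γδ cells, and class sums were compared within libraries by edgeR's quasi-likelihood test, with Benjamini-Hochberg adjustment over 9153 genes and n = 5 libraries. Havcr2 did not pass the filter on low counts, so 5 of the 6 genes were tested. Foxp3 is a low transcript, and Treg cells without a Foxp3 UMI fall among the Cd4 cells here: 465 cells of the Treg-like clusters were assigned as CD4 conventional. Of the cells in CD4 conventional clusters, 5189 were assigned as CD4 conventional and 7028 to no class. Of CD8-like cells, 2969 were assigned as CD8 and 175 to no class. The CD4 conventional cells tested are thus the part with a Cd4 UMI.

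Ctla4, Tigit and Lag3 were higher in Treg than in CD4 conventional cells by 1.62 ± 0.17 (SE), 1.64 ± 0.11 and 1.58 ± 0.17 on the log2 scale (adjusted p 1.22e-08, 4.17e-12 and 1.55e-08 by edgeR), and were higher in Treg cells in 5 of 5 libraries. Btla was higher in CD4 conventional cells by 0.94 ± 0.16 (edgeR adjusted p = 4.46e-05), also in 5 of 5 libraries. The difference in Cd160 between these classes did not pass the test, with a log2 difference of CD4 conventional minus Treg of -0.53 ± 0.32 (edgeR adjusted p = 0.232). In this pair 4 of 5 receptors passed, and 32.2% of all genes did.

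CD8 cells had less Ctla4, Tigit, Lag3 and Btla than CD4 conventional cells, with log2 differences of -1.01 ± 0.17, -0.96 ± 0.12, -0.89 ± 0.18 and -1.55 ± 0.13 (edgeR adjusted p at most 0.00041). By clusters the Lag3 means were close, at 17.3 CPM (SD 3.62) in CD8-like and 18.3 CPM (SD 8.12) in CD4 conventional cells. By lineage transcripts they were 16.7 CPM (SD 4.55) in CD8 and 32.0 CPM (SD 16.1) in CD4 conventional cells. The Lag3 difference thus depended on how cells were taken. Cd160 was higher in CD8 cells by 3.66 ± 0.17 on the log2 scale (edgeR adjusted p = 6.15e-16). All 5 tested receptors passed here, where 23.0% of all genes did. Against Treg cells, CD8 cells were lower in Ctla4, Tigit and Lag3 by log2 differences of -2.63 ± 0.18, -2.60 ± 0.12 and -2.47 ± 0.19 and higher in Cd160 by 3.13 ± 0.23. Btla was lower in CD8 than in Treg cells by a log2 difference of -0.62 ± 0.20 (edgeR adjusted p = 0.0138), a call lost without the second combination library (-0.40, adjusted p = 0.23). All 5 passed in this pair too, beside 41.3% of all genes.

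γδ cells taken by Trdc were few: 141 of them lay in the innate-like cluster and 62 in the γδ-like one. They held more Cd160 than CD8 cells, with a log2 difference of CD8 minus γδ of -1.55 ± 0.18 (edgeR adjusted p = 1.49e-07). They held less Tigit and Ctla4, with CD8 minus γδ at 1.15 ± 0.28 and 1.04 ± 0.28 (edgeR adjusted p 0.00521 and 0.0146). Both of these calls were lost without the S. chamaejasme library, at 0.76 and 0.69 (adjusted p 0.124 and 0.219), and that of Ctla4 also without the second untreated library (1.02, adjusted p 0.0612) and by DESeq2 (0.96, adjusted p 0.0683). Lag3 and Btla did not pass against CD8 cells (adjusted p 0.884 and 0.346). The γδ-like cluster differed from these cells: its mean Ctla4 was 268 CPM (SD 159, n = 5) against 227 (SD 59.3) in CD8-like cells, the other way round, and its mean Cd160 was 76.7 CPM (SD 48.4) against 84.6 (SD 50.4). In the cells taken by Trdc, Ctla4 was 149 CPM (SD 138) and Cd160 326 CPM (SD 162), so both differences from CD8 cells depended on how γδ cells were taken. Mean Tigit was lower than in CD8 cells either way, at 31 and 49.6 CPM. Single libraries of the cells taken by Trdc went the other way. The first combination library had 99.9 CPM of Tigit, on 17 UMIs, against 61.9 in CD8 cells. The second had 389 CPM of Ctla4, on 49 UMIs, against 211. So 3 of 5 passed in CD8 against γδ cells, where 9.93% of all genes did. Of CD4 conventional against γδ cells 4 of 5 passed (14.7% of all genes) and of Treg against γδ cells 5 of 5 (17.3% of all genes). Btla against Treg cells was 1.69 ± 0.56 (edgeR adjusted p = 0.0345) and lost its call without the second untreated library, the S. chamaejasme library or either combination library (adjusted p 0.0567, 0.0915, 0.114 and 0.224). Cd160 was the 1 receptor higher in γδ cells in both, with log2 differences of -5.21 ± 0.22 and -4.68 ± 0.26.

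Within a class the receptors were concentrated in some clusters. Of the 2 CD8-like clusters, cluster 8, led by Ccl5, Gzma, Gzmk and Gzmb, held 213 ± 53.5 CPM of Tigit (SD, n = 5 libraries), against 24.7 ± 8.83 in cluster 4, with Ly6c2, Plac8, Ly6a and Eomes beside the CD8 genes. Ctla4 lay at 501 ± 115 CPM in cluster 8 and 50.5 ± 12.8 in cluster 4, and Cd160 at 179 ± 54.1 and 12.2 ± 5.84. Btla went the other way, at 2.75 ± 1.07 CPM in cluster 8 and 9.42 ± 3.14 in cluster 4. Every library of cluster 8 lay above every library of cluster 4 in Tigit, Ctla4 and Cd160, and below in Btla.

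Of the 2 Treg-like clusters, cluster 5, led by Penk, Tnfrsf9, Klrg1, Cd83, Ccr8 and Foxp3, held 854 ± 122 CPM of Tigit. Cluster 9, led by Lrrc32, Trbv29, Cyp4f18, Ecm1 and Gpr83, held 16.6 ± 5.63. Ctla4 was high in both, at 1942 ± 375 and 631 ± 120 CPM. All 29 Havcr2 UMIs of Treg-like cells were in cluster 5. Foxp3 was not among the leading genes of cluster 9, which held 999 cells. Clustering that used the receptors gave a Treg-like cluster of 694 cells, led by Lrrc32, Cyp4f18 and Ecm1. It also gave an unnamed cluster of 262 cells led by Trbv29 and Pclaf, with Mki67. Whether its cells came from cluster 9 was not tested. Among the CD4 conventional clusters, cluster 2, led by Tox2, Tnfsf8, Tbc1d4 and Il21, had the highest mean Tigit (438 ± 49.9 CPM), Ctla4 (972 ± 57.4), Lag3 (77.2 ± 35.6) and Btla (47.1 ± 12.8). Cluster 3, led by Il17a, Il22 and Il17f, held 820 ± 237 CPM of Ctla4 with 12.2 ± 5.14 of Btla, and cluster 1, with Il6ra, Pdlim4 and Igfbp4, held 44.8 ± 34.4 CPM of Ctla4 with 23.1 ± 4.20 of Btla. These levels describe clusters found in the same cells and carry no test.

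**Figure D2:**
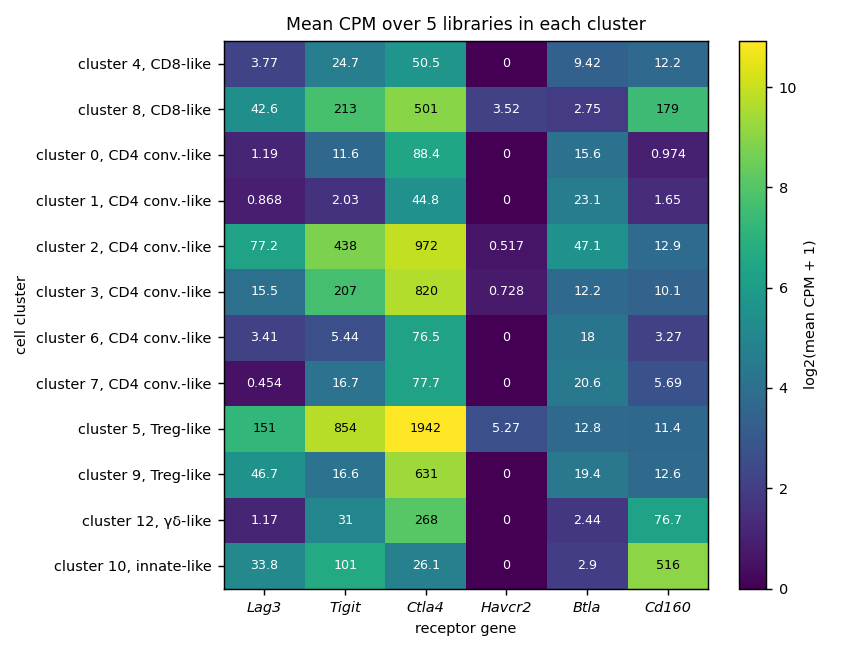
Mean CPM over 5 libraries of each receptor gene (columns) in each cluster with a class name (rows), coloured by log2(mean CPM + 1). Tigit and Ctla4 were highest in Treg-like cluster 5, at 854 and 1942 CPM, and Cd160 in innate-like cluster 10, at 516 CPM.

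Receptors were also counted in single cells after each cell was thinned to 2000 UMIs, leaving out shallower cells. Ctla4 was seen in 78.2% of 2332 Treg-like cells, 25.7% of 12040 CD4 conventional cells and 25.2% of 3081 CD8-like cells. Tigit was seen in 44.6%, 14.5% and 13% of these, and Lag3 in 13.2%, 2.36% and 3.02%. Cd160 was seen in 12.4% of CD8-like cells, 63.4% of 730 innate-like cells and 0.739% of CD4 conventional cells. Among 32 B or myeloid cells without T cell transcripts, at a median depth of 2464 UMIs and unthinned, Tigit, Ctla4, Btla and Cd160 were each seen in 1 cell, or 3.13% (95% Wilson interval 0.554% to 15.7%), Havcr2 likewise in 1, and Lag3 in 2 cells (6.25%, 1.73% to 20.1%). Shares at or below those values are not told apart from background. Among them were Lag3 in every class but Treg-like cells and Btla in every class but CD4 conventional cells. Cd160 in CD4 conventional and Treg-like cells and Havcr2 in every class were also among them. With 32 cells the background is itself known only widely. Its upper bounds also hold, among others, the Tigit shares of CD8-like and CD4 conventional cells. They hold the Cd160 share of CD8-like cells and the Lag3 share of Treg-like cells too. Without thinning, the mean share of cells with at least 2 receptors was 58.9% in Treg-like, 24.9% in CD8-like and 19.0% in CD4 conventional cells.

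At least 2 of the 6 receptors were seen in 45.8%, 47.9%, 49.2%, 48.1% and 46.7% of Treg-like cells in the untreated, S. chamaejasme and combination libraries in that order. The 5 values lay within each other's 95% Wilson intervals. In CD8-like cells the values were 19.2% and 9.88% untreated, 17.1% with S. chamaejasme, and 9.71% and 10.4% with the combination. The second untreated library lay with the combination libraries and the first with S. chamaejasme, so the groups overlapped. CD4 conventional cells had 13.6%, 11.9%, 13.5%, 9.73% and 10.7%, and there both combination libraries were below both untreated ones.

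**Figure D3:**
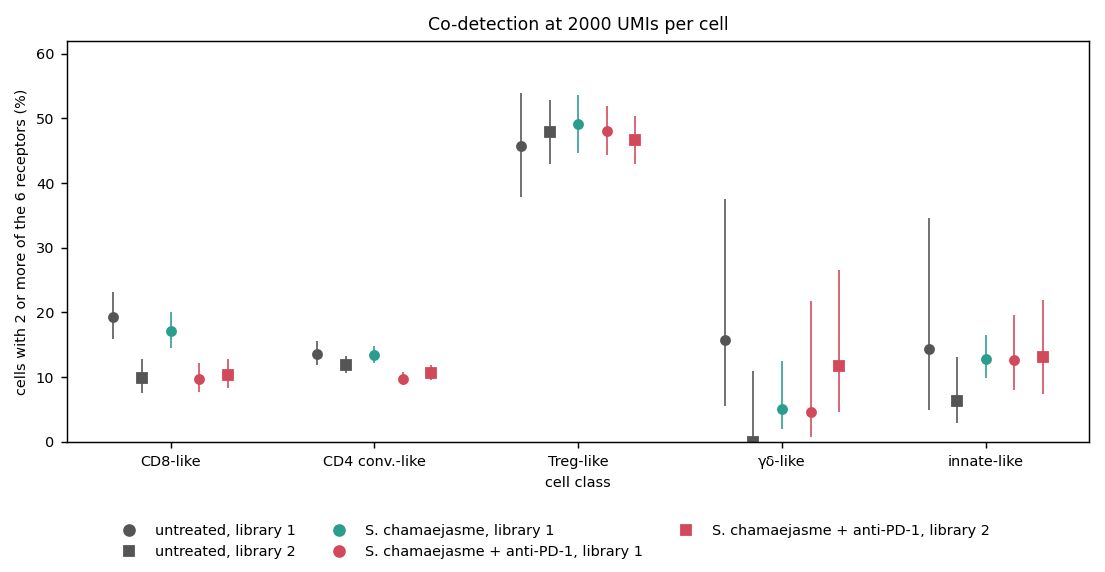
Share of cells with a UMI of at least 2 of the 6 receptors after thinning to 2000 UMIs (vertical axis, percent) by cell class (horizontal axis), 1 point per library with its 95% Wilson interval. Treg-like cells sat between 45.8% and 49.2% in all libraries, above every other class.

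Receptors seen together in a cell were counted in each class. In CD4 conventional cells, 1086 cells held both Tigit and Ctla4 where the product of the 2 shares gives 449, a ratio of 2.42, and 82.7% of the 284 Lag3 cells also held Ctla4 (ratio 3.23). In CD8-like cells Tigit and Ctla4 were together in 194 cells where the product gives 101 (ratio 1.92), Ctla4 and Cd160 in 165 where it gives 96.0 (ratio 1.72), and Tigit and Cd160 in 55 where it gives 49.6 (ratio 1.11). Tigit and Btla shared 2 CD8-like cells where the product gives 4.82. Treg-like cells had ratios of 1.17 for Tigit and Ctla4 and 1.21 for Lag3 and Tigit. Innate-like cells had Tigit and Cd160 together in 49 cells where the product gives 63.4. These ratios pool the 5 libraries and the clusters of a class, which differ in receptor level, and are descriptions without a test.

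The combination was compared with no treatment in each class by edgeR's quasi-likelihood test on class sums, with all 5 libraries in the fit. The 3 comparisons between groups share libraries with one another. In CD8-like cells Tigit and Havcr2 passed, both lower with the combination, and the other 4 receptors did not. Havcr2 was tested only through its untreated counts, as given below. Of the 9616 genes tested, 6.24% passed. The median log2 difference was -0.46 over the 6 receptors and 0.01 over all genes. Tigit fell by 0.65 ± 0.13 (SE) on the log2 scale (edgeR adjusted p = 0.00727), with both combination libraries (74.0 and 79.1 CPM) below both untreated ones (127 and 113). In a class sum, fewer cells with a transcript and less transcript per cell cannot be told apart. By share, Tigit was seen in 18.3% and 15.1% of untreated and 8.63% and 10.1% of combination CD8-like cells.

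The makeup of the class differed between the same libraries. Cluster 8, where Tigit was high, was 59.6% and 38.6% of CD8-like cells untreated, 70.5% with S. chamaejasme, and 26.5% and 30.4% with the combination. Within cluster 8 alone the Tigit difference was -0.20 ± 0.19 (edgeR adjusted p = 0.632), on 190, 286, 140, 220 and 227 CPM, and within cluster 4 alone it was 0.16 ± 0.25 (adjusted p = 0.811). The call was also lost by DESeq2 (-0.65, adjusted p = 0.0579) and without either combination library (-0.62 and -0.69, adjusted p 0.156 and 0.0816).

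Havcr2 in CD8-like cells rested on 16 UMIs untreated and 3 with the combination, a ratio of 0.0992 (95% exact counting interval 0.0185 to 0.346). The adjusted p was 0.0452 by edgeR, and it lay above the threshold without the first or the second combination library (0.28 and 0.167), in cells taken by lineage transcripts (0.0518) and with doublets kept (0.0567). Havcr2 did not pass the filter on low counts without either untreated library. It thus entered the test through the group where it was high, so its call is no separate support for a fall.

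Lag3 in CD8-like cells had a log2 difference of 0.56 ± 0.22 (edgeR adjusted p = 0.155). Within cluster 8 alone it rose by 1.12 ± 0.27 (edgeR adjusted p = 0.0307), from 20.1 and 35.9 CPM untreated to 66.8 and 62 with the combination, while S. chamaejasme had 28.4. Ctla4, Btla and Cd160 had differences of -0.30 ± 0.17, -0.35 ± 0.40 and -0.56 ± 0.30 (adjusted p 0.328, 0.65 and 0.3). Cd160 changed sign with 1 library: it was 0.40 without the first untreated library and -1.15 without the second. Both of these fits kept 1 untreated library and took their spread from the pair of combination libraries alone.

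**Figure D4:**
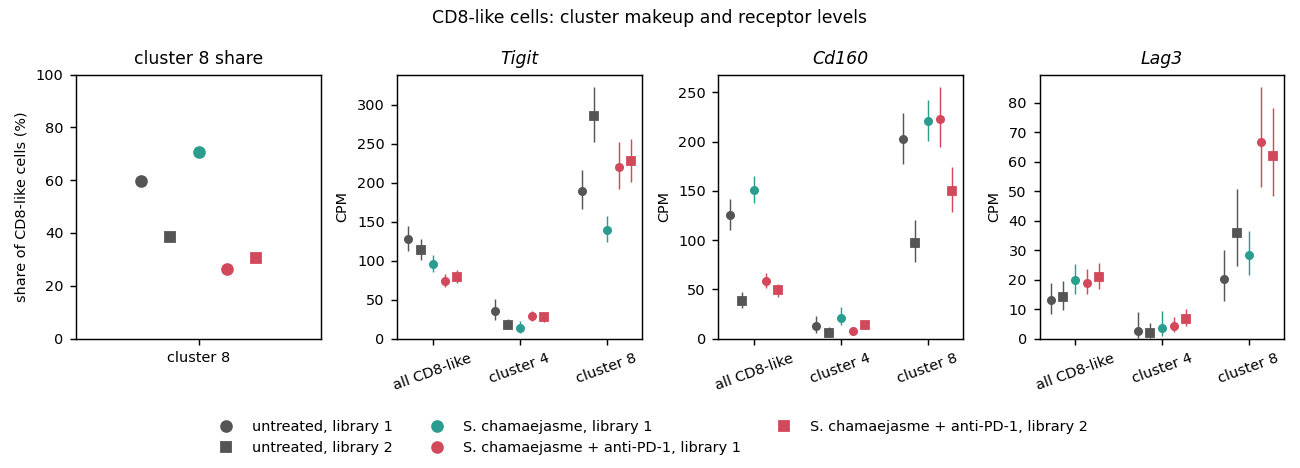
Share of CD8-like cells in cluster 8 (left, percent) and CPM of Tigit, Cd160 and Lag3 in all CD8-like cells, cluster 4 and cluster 8, 1 point per library with exact 95% Poisson intervals on CPM. Tigit in all CD8-like cells was 74.0 and 79.1 CPM with the combination against 127 and 113 untreated, and in cluster 8 the 2 groups overlapped.

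In CD4 conventional cells none of the 5 receptors tested passed for the combination against no treatment by edgeR, 1 had an unadjusted p under 0.05 and none passed by DESeq2, beside 6.51% of all genes. Tigit had a log2 difference of -0.36 ± 0.09 (adjusted p = 0.0597), and Lag3, Ctla4, Btla and Cd160 had 0.75 ± 0.46, -0.35 ± 0.20, -0.15 ± 0.24 and -0.47 ± 0.42. Both combination libraries had less Tigit than both untreated ones, while the groups overlapped in the other 4. Which receptors passed changed with the library left out. Those fits kept 1 library in a group and took their spread from the other pair. The makeup of this class differed between groups too: cluster 7 was 24.2% and 42.6% of it untreated, 0.806% with S. chamaejasme, and 1.46% and 1.43% with the combination, and cluster 0 was 6.82% and 3.97%, 17.6%, and 33.9% and 35.5%. AY036118 and Lars2, the signs of RNA quality above, are among the leading genes of cluster 7. The part of this makeup in the differences of the class was not tested. Pdcd1, which encodes PD-1, rose by 1.72 ± 0.24 (adjusted p = 0.0132) in the same fit. Its level was 7.37 and 12.4 CPM untreated, 29.3 with S. chamaejasme, and 30.7 and 39.1 with the combination.

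In Treg-like cells none of 5 passed by edgeR, 2 had an unadjusted p under 0.05 and none passed by DESeq2, beside 0.379% of all genes. The log2 differences were 0.64 ± 0.27 for Lag3 (adjusted p = 0.254), -0.48 ± 0.14 for Tigit (0.132), 0.30 ± 0.15 for Ctla4 (0.339), -0.02 ± 0.34 for Btla and 0.12 ± 0.35 for Cd160. Pdcd1 rose by 0.97 ± 0.18 (edgeR adjusted p = 0.0396). It also passed for S. chamaejasme, 1 library, against no treatment, at 1.11 ± 0.21 (edgeR adjusted p = 0.0414). Its level was 89.1 and 94.2 CPM untreated, 203 with S. chamaejasme, and 209 and 167 with the combination. The Lag3 result in Treg-like cells changed without the first untreated library, a fit that kept 1 library of that group. In both classes Havcr2 did not pass the filter on low counts.

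Whether the combination difference was unlike between classes was tested with library as a term. None of the 6 receptors passed for CD8 minus CD4 conventional (0.00919% of all genes passed), CD8 minus Treg (0.423%) or Treg minus CD4 conventional (0.138%), and 0, 1 and 1 had an unadjusted p under 0.05 by edgeR. The 1 in each of the last 2 was Ctla4, with -0.57 ± 0.26 for CD8 minus Treg (edgeR adjusted p = 0.53) and 0.62 ± 0.24 for Treg minus CD4 conventional (adjusted p = 0.452). The Tigit difference was -0.28 ± 0.14 for CD8 minus CD4 conventional (edgeR adjusted p = 0.979).

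S. chamaejasme alone was 1 library, whose spread was taken from the other groups. Against no treatment, no receptor passed in CD8-like cells by edgeR (3.77% of all genes passed), 3 had an unadjusted p under 0.05 and none passed by DESeq2. Tigit was -0.44 ± 0.16 (adjusted p = 0.133), Cd160 0.82 ± 0.34 (0.192), Lag3 0.43 ± 0.27, Ctla4 0.12 ± 0.21 and Btla -1.02 ± 0.55 on the log2 scale. Havcr2 had 0 UMIs with S. chamaejasme against 16 untreated, 11 of them in the first library, with a 95% exact counting interval of the ratio from 0 to 0.373 and an edgeR adjusted p of 0.0702. Leaving out 1 untreated library set 1 library against 1, with the spread taken from the pair of combination libraries alone. Leaving out 1 combination library took the spread from the untreated pair alone. Which receptors passed in CD8-like cells changed in these fits, which measure no spread within S. chamaejasme. No receptor passed in CD4 conventional cells (1.82% of all genes) or in Treg-like cells (0.52%) by edgeR, with 0 in each class at an unadjusted p under 0.05 and none by DESeq2. The calls in CD4 conventional cells also changed with 1 untreated library left out, under the same limit.

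Between the combination and S. chamaejasme, Cd160 was the 1 receptor that passed in CD8-like cells, beside 2.7% of all genes. It fell by 1.38 ± 0.33 on the log2 scale (edgeR adjusted p = 0.0382), from 151 CPM to 58.7 and 48.9. Within cluster 8 it was 220 CPM with S. chamaejasme and 223 and 150 with the combination, a difference of -0.29 ± 0.29 (edgeR adjusted p = 0.946), and DESeq2 gave an adjusted p of 0.999 for the class. The calls by cells taken by lineage transcripts and with doublets kept were also lost, at differences as large (-1.64 ± 0.38 and -1.44 ± 0.38, edgeR adjusted p 0.0644 and 0.0984). Lag3, Tigit, Ctla4 and Btla had differences of 0.13 ± 0.24, -0.21 ± 0.15, -0.42 ± 0.21 and 0.67 ± 0.53 (edgeR adjusted p from 0.383 to 0.872). Which receptors passed also changed with 1 untreated library left out, where the spread came from the combination pair alone. In CD4 conventional and Treg-like cells none passed by edgeR (0.211% and 0.119% of all genes), with 1 and 2 at an unadjusted p under 0.05 and none by DESeq2. The calls in CD4 conventional cells changed in the same way with 1 untreated library left out.

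The genes around these receptors were read from lists of their ligands, paired and costimulatory receptors with ligands of these, signalling partners, other inhibitory receptors and transcription factors. In CD8-like cells under the combination, 2 of 11 paired and costimulatory receptors and their ligands rose and 3 fell against no treatment (median log2 difference -0.43, and 0.01 over all genes). Over all genes 6.24% passed in that comparison, which is the background for each list below. Cd27, a TNF receptor family member that costimulates T cells, rose by 0.82 ± 0.13, Cd96, a further partner of the poliovirus receptor, rose by 0.54 ± 0.14, and Tnfsf14, which encodes the herpesvirus entry mediator ligand LIGHT, fell by 1.76 ± 0.28 (edgeR adjusted p 0.00188, 0.0322 and 0.00175). Of 10 ligands tested, Tnfrsf14, the partner of BTLA and CD160, rose by 0.99 ± 0.24 and Lgals3, a galectin that binds LAG-3, fell by 1.06 ± 0.21 (adjusted p 0.0242 and 0.00916). Of 16 other inhibitory receptors 3 fell and none rose (median 0.13): Lilrb4a fell by 2.08 ± 0.20 and Klrc1, which encodes NKG2A, by 1.07 ± 0.14. Klrc1 is also among the leading genes of cluster 8, whose share of CD8-like cells differed between groups, as given above. The part of cluster makeup in the changes of all these lists in CD8-like cells was not tested.

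Of 20 signalling partners 5 fell and none rose in that comparison (median -0.03), among them Ptpn22, a phosphatase, by 0.65 ± 0.13, and Inpp5d, the phosphatase SHIP-1, by 0.55 ± 0.13. Of 20 transcription factors 4 fell and none rose (median -0.24): Prdm1 fell by 1.42 ± 0.28, Bhlhe40 by 1.32 ± 0.18, Nr4a3 by 1.24 ± 0.14 and Nr4a1 by 0.50 ± 0.13. In CD4 conventional cells 7 of 21 transcription factors fell and none rose (median -0.18, beside 6.51% of all genes), including Prdm1 by 1.38 ± 0.24 and Irf4 by 1.07 ± 0.13. The cluster makeup of that class moved with the groups, as given above. In Treg-like cells no gene of the lists but Pdcd1 passed for the combination against no treatment. Some genes named above also passed by edgeR for S. chamaejasme, 1 library, against no treatment. In CD8-like cells these were Cd96 (0.89 ± 0.16, adjusted p = 0.0112), Nr4a3 (-1.01 ± 0.18, 0.00997) and Lilrb4a (-0.85 ± 0.23, 0.04996). In CD4 conventional cells Irf4 passed (-0.99 ± 0.17, edgeR adjusted p = 0.0404). The other genes named from the lists in these 2 classes did not pass there.

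Cells of expanded clones, with the same TRA and TRB CDR3 in at least 2 cells, were compared with cells of single clones within each library. Tigit of CD4 conventional cells was higher in expanded clones in 5 of 5 libraries, by a mean of 1.77 ± 0.58 (SD, n = 5) on the log2(CPM + 10) scale, and Ctla4 by 1.70 ± 0.48. The first untreated library, for example, had 256 CPM of Tigit in expanded and 121 in single clones, and the first combination library had 509 and 79.9. Lag3, Cd160 and Btla were also higher in 5 of 5, by 0.91 ± 0.55, 0.71 ± 0.27 and 0.53 ± 0.25. The exact sign permutation test gave p = 0.062 for each, the smallest that 5 libraries allow, two-sided, and an exact permutation p of 0.109 after Benjamini-Hochberg adjustment over 21 tests. In no class were all other genes compared this way, so these counts have no background share. Cluster makeup may differ between expanded and single cells, and its part was not tested.

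In CD8-like cells Cd160, Ctla4 and Tigit were higher in expanded clones in 5 of 5 libraries, by 1.34 ± 0.83, 1.29 ± 0.70 and 1.08 ± 0.53, and Btla was lower in 5 of 5, by -0.60 ± 0.21 (exact permutation p = 0.062 for each). Btla thus had opposite signs in the 2 classes, and the difference between the classes was not tested. In Treg-like cells Tigit was higher in 5 of 5, by 1.59 ± 0.34, on 7 to 38 expanded cells in a library, and Ctla4 in 4 of 5. With the stricter rule of a TRB CDR3 in at least 3 cells, Btla in CD4 conventional cells was higher in 4 of 5 libraries, by 0.27 ± 0.30.

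**Figure D5:**
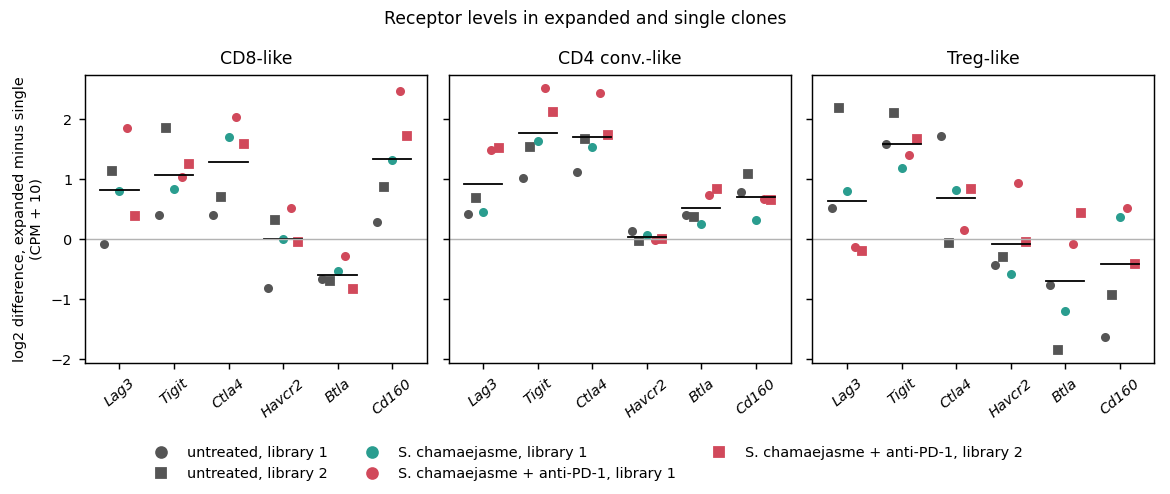
Difference in log2(CPM + 10) between cells of expanded and single clones (vertical axis) for each receptor gene (horizontal axis) in 3 classes, 1 point per library, with the mean as a line. Tigit lay above 0 in every library of all 3 classes, and Btla below 0 in every library of CD8-like cells.

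Over the 20 sums of 4 classes and 5 libraries, the genes with levels most like a receptor's were ranked by Pearson's r of log2(CPM + 10) among 4929 genes. The sums share libraries and fall into classes, so r mostly follows the classes and has no p. Lag3 was closest to Ankrd55 (r = 0.95), and its r with Tigit was 0.92. Tigit was closest to Vgll4 (0.96), Ctla4 to Ccr8 (0.96), Cd160 to Cxcr3 (0.96) and then Klrc1 (0.92) and Cd226 (0.90), and Btla to Trib2 (0.90). Btla and Cd160 had an r of -0.86. Havcr2 was closest to Itsn2 (0.82), on few counts.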

How the data were processed

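RNA and T cell receptor libraries from 5 samples were used. The deposited values are raw UMI counts per gene and cell, made by the authors with Cell Ranger 3.1.0 and STAR on mm10 per the submitters' processing notes. Receptor contigs came from the authors' deposited tables.

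A barcode needed 300 genes or more and no more than 10% mitochondrial counts (21549 passed), and 1310 likely doublets were removed: the 799 highest Scrublet scores, taken by rank because its own cutoff marked 17, and 618 cells with at least 2 productive TRB chains, some in both. Leiden clustering (scanpy 1.11.5, Python 3.11.15) left out the 6 receptors and Pdcd1. Raw counts were summed per class and library and tested with edgeR 4.0.16 (R 4.3.3) with TMM, filterByExpr and Benjamini-Hochberg adjustment, at a threshold of 0.05, and with DESeq2 1.42.0 as an alternative. The edgeR step was tested on simulated data. Named genes were the 6 receptors, Pdcd1, at most 6 called members of each pathway list by size of change, and the genes most correlated with each receptor. Receptors and lists were chosen with earlier results of these data known. Untreated libraries carry differently styled titles, and batch and group cannot be told apart. Alternatives were other filters, classes, doublet handling, thinning, and libraries left out.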

Additional observations from a re-analysis of the deposited data

Results flagged for a closer look

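Cd160 in the innate-like cluster, which entered no comparison between groups, lay at 842 CPM in the S. chamaejasme library, above 388 and 282 CPM in the untreated libraries. The combination libraries had 550 and 518 CPM. The difference was not tested, and the first untreated value rests on 34 UMIs.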

How the results depend on the processing

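No paired analysis was possible because the labels number no replicates: libraries were numbered in accession order, and nothing ties a number to an animal or batch. Of 6 receptors in CD8-like cells, 2 passed for the combination against untreated, of which Havcr2 was tested only through its untreated counts. This count was 0 by DESeq2 (3 with an adjusted p) and in cluster 4 alone, 1 with cells taken by lineage transcripts, clustering that used the receptors, doublets kept, the 2 groups only or cluster 8 alone, and 0 to 3 with libraries left out. For S. chamaejasme against untreated the count of 0 became 2 with no low-count filter and changed with libraries left out. Every fit between groups with 1 library left out kept 1 library in that group. Its spread came from the 1 remaining pair of libraries. For the combination against S. chamaejasme the count of 1 became 0 by DESeq2, lineage transcripts, clustering with the receptors, doublets kept and either cluster alone, 2 with the 2 groups only, and 1 to 2 with libraries left out.

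In CD4 conventional cells the count of 0 for the combination against untreated became 2 with no filter and 1 with doublets kept or in cluster 0 alone. For S. chamaejasme against untreated it became 2 with no filter and 1 in cluster 1 alone. For the combination against S. chamaejasme it became 1 with no filter and 2 with the 2 groups only. The counts of all 3 comparisons also changed with libraries left out. In Treg-like cells the counts of 0 became 1 with no filter in both combination comparisons. For the combination against untreated the count also changed with libraries left out. Of CD8 against γδ cells, 1 to 3 passed with libraries left out. The share of all genes passing is not given for the alternative settings of this section. Their counts thus have no background and are not read as results about the receptors.

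Signs reversed as follows on the log2 scale. In CD8-like cells, combination against untreated, leaving out libraries gave a range of -0.59 to 0.0516 for Ctla4, -1.15 to 0.40 for Cd160 and -0.84 to 0.46 for Btla. In cluster 4 alone Tigit was 0.16 and Cd160 0.32, and in cluster 8 alone Ctla4 was 0.42 and Cd160 0.17. For S. chamaejasme against untreated, Ctla4 ranged from -0.17 to 0.47 with libraries left out and was -0.24 by lineage transcripts, -0.95 in cluster 4 and -0.14 in cluster 8, where Lag3 was -0.0156. For the combination against S. chamaejasme, Lag3 was -0.18 by lineage transcripts, and Tigit and Ctla4 were 1.04 and 0.64 in cluster 4 and 0.64 and 0.57 in cluster 8. In CD4 conventional cells, combination against untreated, leaving out libraries gave -0.64 to 0.0311 for Ctla4, -1.13 to 0.41 for Cd160 and -0.50 to 0.43 for Btla. Tigit was 0.59 in cluster 0, 0.0151 in cluster 3 and 0.998 in cluster 6, Cd160 0.34 in cluster 2, Ctla4 0.61 in cluster 3 and Btla 0.20 in cluster 6. In Treg-like cells Btla ranged from -0.43 to 0.50 and Cd160 from -0.23 to 0.30 with libraries left out, and in cluster 9 Ctla4 was -0.19, Btla 0.0553 and Cd160 -0.26. Lag3 in CD8 minus γδ cells ranged from -0.38 to 0.28 with libraries left out.

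The mean share of cells with at least 2 receptors was 13.3% in CD8-like, 11.9% in CD4 conventional, 47.5% in Treg-like and 7.45% in γδ-like cells. Without thinning it was 24.9%, 19.0%, 58.9% and 16.6%. At 1000 UMIs it was 5.82%, 6.20% and 29.6% in the first 3, and by lineage transcripts 16.7% in CD4 conventional and 54.8% in Treg cells. The causes were not tested. Depth limits Havcr2 throughout and every receptor in γδ-like cells.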
